A study of Homo sapiens with 4 samples.

Results

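Genes of the ubiquitin, proteasome and COP9 signalosome system were described in an ac4C map of FaDu cells, an established line of human hypopharyngeal squamous carcinoma. N4-acetylcytidine (ac4C) is an acetylated form of cytidine in RNA, and NAT10 is the enzyme that writes it. In acRIP-seq, fragmented RNA is pulled down with an antibody against ac4C (IP) and sequenced beside the fragmented RNA that did not go through the antibody step (input). One line carried a control shRNA (shNC) and the other an shRNA against NAT10 (shNAT10), both delivered by lentivirus and selected with puromycin. The 4 libraries were 1 IP and 1 input from each line. With no replicate of either line, the conditions are compared here as 2 lists of peaks, without a statistical test. The question behind the comparison was which ac4C peaks differed once NAT10 was depleted.

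Members were the genes of the authors' table of differing peaks whose symbol starts with UBE, USP and a digit, PSMA to PSMG, COPS, CUL and a digit, FBXO, FBXL, FBXW, RNF, TRIM or KLHL. The rule found 69 genes of the 2483 in the table, with 75 of its 2807 peaks. They were 10 UBE, 8 USP, 22 PSM, 2 COPS, 4 CUL, 5 F-box, 12 RNF and 6 TRIM genes, and 0 KLHL genes. Each gene had a peak in at least 1 of the 2 peak lists, 1 list per condition, and all were annotated as protein coding. Because the table holds only peaks that the authors had called as differing, each member had to differ somewhere. The values between conditions are therefore given as a description beside the other genes of the same table.

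Ubiquitin is a small protein that is attached to other proteins by a relay of enzymes. An E1 activates it, an E2 carries it, and an E3 ligase brings the E2 to the substrate. Cullins are scaffolds of the largest family of E3 ligases, and F-box proteins are the substrate receptors of a part of that family. The COP9 signalosome switches cullins off by removing the ubiquitin-like protein NEDD8. USP enzymes remove ubiquitin again. Chains of ubiquitin send many proteins to the proteasome, a barrel-shaped core (20S) that cuts proteins, with a cap (19S) that recognises and unfolds them.

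The measure was the fold enrichment of a peak, a linear ratio of IP over input that the authors' peak caller gave for each list. A peak that is in one list and not in the other has no value in the other condition, and this does not show that ac4C was absent there. Where a shNC and a shNAT10 peak of the same gene overlapped by at least 1 exonic base, and each was the other's best match, they are called a peak pair and their ratio is given. The RNA level of the genes was not part of these files, how the libraries were scaled is not given in the sources used here, and the depth of the libraries is unknown. The shNC list held 6403 peaks and the shNAT10 list 6417. Their median fold enrichment was 12.4 in both. Over all genes, 51.4% of shNC peaks were overlapped by a shNAT10 peak of the same gene, and 51.3% of shNAT10 peaks by a shNC peak. NAT10 itself was listed with an overlapping peak in both conditions, at a fold enrichment of 6.91 in shNC and 12 in shNAT10. This value is an enrichment of ac4C and not an RNA level, so it does not check the knockdown. Of 12 epithelial markers, 4 (ITGB4, KRT18, KRT19 and LAMB3) had a row in the table. The table lists differing peaks only, so it cannot check the cell type.

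The authors' table marks CXXCXXCXXCXX sites, 4 triplets that each start with C, inside each peak. One member site lay inside a promoter window for which reference sequence was at hand. It belongs to RNF145, a ligase of the endoplasmic reticulum membrane whose shNC peak in the 5'-UTR held 6 such sites. The stretch of 30 bases around this site is shown because it is the only listed member site that could be read in the reference sequence at hand. It lies at chr5:159209544-159209573 on the minus strand of GRCh38.p14 (RefSeq), with the site, 159209553 to 159209564, in capitals.
RNF145: gaagtcgggCCGCGGCCGCCGcagagcgcc
Read 5' to 3', the capitals carry a C at the start of each of the 4 triplets. The last base of the site is the start site of the gene in RefSeq, so the rest of the site lies upstream of the RefSeq transcript. Of 8 listed sites of the whole table that could be read in this way, 7 held a C at the start of every triplet on the transcript's strand.

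UBE2V1 and its partner UBE2N were both in the table. UBE2V1 is an E2-like protein without a catalytic cysteine, and with UBE2N it forms the E2 that builds chains used in signalling and DNA repair. The UBE2V1 peak (ENSG00000244687) lay in the 3'-UTR at chr20:50081423-50081692 and held 1 site. Its fold enrichment was 16.0 in shNC and 9.30 in shNAT10, a ratio of shNC over shNAT10 of 1.72. The peak caller's FDR was 4.0e-32 in shNC and 6.3e-03 in shNAT10, and the listed peaks shared 91 exonic bases. This peak also overlapped a table peak of the readthrough gene TMEM189-UBE2V1, so its reads cannot be assigned to 1 gene. UBE2N had a 3'-UTR peak at chr12:93409369-93409668 at 12.4 in shNC and none listed in shNAT10.

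Of the 5 E2 genes with a peak pair, UBE2V1 included, 4 had the lower value in shNAT10. Over all genes, 1668 of 3188 pairs did. UBE2S, which extends chains for the anaphase-promoting complex, had the lowest shNAT10 over shNC ratio of the E2 genes, with a coding-sequence peak at 48.3 in shNC and 8.61 in shNAT10. UBE2Z, an E2 charged by the second ubiquitin E1, stood at 10.8 in shNC and 2.96 in shNAT10. UBE2M, the E2 of NEDD8, stood at 25.4 in shNC and 13.5 in shNAT10, in a 3'-UTR peak with 7 sites. Another 3 E2 genes were listed in shNAT10 only. These were UBE2L3, which serves HECT and RBR ligases, at 14.6, UBE2D4 at 13.5 and UBE2H at 10.1. UBE4B, a ligase that lengthens existing chains, had a 3'-UTR table peak at 7.37 in shNC only and a second peak, outside the table, at 20.3 in shNAT10 only.

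Of the 2 signalosome subunits, COPS4 (ENSG00000138663) was listed in shNC only and COPS6 in both conditions. The COPS4 peak lay in the 3'-UTR, with the table peak at chr4:83075369-83075758, at a fold enrichment of 15.4 in shNC with an FDR of 7.9e-15, and it held 0 sites. COPS6 had a peak of 3 exonic blocks with 2 sites, at 29.3 in shNC and 26.8 in shNAT10. The enrichment of COPS6 thus differed by a ratio of 1.09 although the peak stands in the table of differing peaks. A second COPS6 peak, outside the table, was listed in shNAT10 only, at 3.72.

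Of the 4 cullin genes, 3 were listed in shNAT10 only, as were 19.3% of the table genes that are not members. CUL3, the scaffold for BTB-domain adaptors, had a 3'-UTR peak at 52.8 in shNAT10 at chr2:224474015-224474224. CUL9, a large cytoplasmic cullin, had an exonic peak at 29.2. CUL4A, the scaffold that works through DDB1, had a 3'-UTR peak at 10.1 and a second one outside the table at 11.0. CUL5, the scaffold for SOCS-box receptors, had its table peak at 29.0 in shNC only. A further CUL5 peak in shNAT10, at 6.76, had an FDR of 1 and did not overlap the first. No cullin had a peak pair.

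The 5 F-box genes were spread over all 3 outcomes. FBXW5 had the lower enrichment in shNAT10, at 25.6 in shNC and 5.35 in shNAT10. FBXO44 had the higher one, at 2.99 in shNC and 15.6 in shNAT10, and its shNC peak was weak, with an FDR of 0.0562. FBXL19 was listed in shNC only, at 30.4 with 4 sites, in a peak that overlapped a shNAT10 peak of another gene at 9.30. FBXO31, a receptor for cyclin D1, and FBXO45 were listed in shNAT10 only, at 5.92 and 5.63 for their table peaks. FBXO45 also had a shNAT10 peak at 24.5 outside the table.

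RNF26 had the largest difference of all member peak pairs. RNF26 is a ligase of the endoplasmic reticulum that positions endosomes, and its 3'-UTR peak at chr11:119336864-119337283 held 3 sites. It stood at 122 in shNC, the highest value of any member in either list, and at 6.07 in shNAT10, a ratio of 20.1. RNF185, a ligase of protein quality control at the same membrane, went the other way in a 3'-UTR peak with 3 sites, from 7.04 in shNC to 46.8 in shNAT10. RNF167, an endolysosomal ligase, stood at 15.9 in shNC and 8.10 in shNAT10. RNF145 had a second peak far from its 5'-UTR, outside the table, at 30.4 in shNC and 21.1 in shNAT10.

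Of the RNF table peaks, 7 of 13 were listed in shNAT10 only (95% Wilson interval 29.1% to 76.8%) and 3 in shNC only (8.18% to 50.3%). Over all table peaks these shares were 27.3% and 32.6%, and the second lies inside its interval. The interval for shNAT10 only counts RNF126 as 2 peaks although a single list peak overlapped both. It is therefore too narrow, and its lower end cannot be set against 27.3%. RNF11 led the peaks in shNAT10 only with 68.4, the highest shNAT10 value of any member. RNF169, which acts at DNA breaks, and RNF220 both stood at 17.7, RNF139 at 11.4 and RNF40, a ligase for histone H2B, at 6.08. RNF126, a ligase for mislocalised proteins, had 2 table peaks with 3 and 2 sites, both at 7.46 because a single list peak overlapped them. Besides the RNF145 peak at 25.6, the shNC group held RNF4, the SUMO-targeted ligase, at 26.9 and RNF5 at 6.16. RNF4 also had a shNAT10 peak at 6.76 with an FDR of 1 that did not overlap its shNC peak.

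Of the 8 TRIM table peaks, 5 were listed in shNC only (95% Wilson interval 30.6% to 86.3%). The 32.6% of all table peaks lies inside this interval. The 8 peaks came from 6 genes, with 2 each in TRIM28 and TRIM59, so the interval is too narrow. In shNC only, TRIM65 stood at 46.3, TRIM56, a ligase of antiviral defence, at 35.2 and TRIM27 at 17.3. TRIM28, a corepressor that works with zinc finger proteins, had a coding-sequence peak at 20.2 in shNC only. A second TRIM28 peak in coding sequence held 8 sites, the most of any member peak, and stood at 12.3 in shNC and 8.78 in shNAT10. Another shNC peak of TRIM28, at 12.5, overlapped the same shNAT10 peak. TRIM29, a protein of squamous epithelium and of the DNA damage response, had a table peak at 11.1 in shNAT10 only. All 3 TRIM pairs, including TRIM56 at 91.2 against 46.5 and TRIM29 at 32.7 against 23.4 outside the table, had the lower value in shNAT10. Of these, 0 were at least 2-fold lower, and 1668 of the 3188 pairs of all genes also had the lower value in shNAT10. TRIM59 had a peak at 17.3 in shNC only and another at 17.7 in shNAT10 only. Both TRIM59 peaks lay outside the RefSeq gene of that name. They were the exceptions among the 75 member table peaks, of which 73 lay on the RefSeq gene of the same symbol.

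Deubiquitinases were split. USP8, which acts on receptors at endosomes, was listed in shNC only with a 3'-UTR peak at 85.0 and 0 sites. USP48 at 14.7 and USP34 at 6.79 were also in shNC only. USP5, which takes apart free chains, had a coding-sequence table peak at 62.5 in shNAT10 only. Another USP5 peak, outside the table, was in both lists, at 15.0 in shNC and 1.33 times that in shNAT10. USP1, which acts in DNA repair, stood at 22.8, USP9X at 17.7 and USP10 at 7.04, all in shNAT10 only. USP22, the deubiquitinase of the SAGA coactivator, was the one USP gene with a table peak in both lists, at 34.8 in shNC and 9.79 in shNAT10.

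All 8 genes of the 20S core had a peak in both lists. Of the other table genes, 59.1% had one, and of the members that are not PSM genes 44.7%. Within the core, PSMA and PSMB genes form the outer and inner rings. PSMA2 stood at 15.9 in shNC and 57.2 in shNAT10, PSMB1 at 14.0 and 27.2, and PSMB5, the chymotrypsin-like site, at 18.6 and 23.7. PSMA2 shared its peak with a table peak of another annotated gene, AC010132.3. Lower in shNAT10 were PSMA7, at 30.8 in shNC and 14.0 in shNAT10, and PSMB7, the trypsin-like site, at 13.1 and 7.62. The 11 pairs of the core had a median log2 ratio of shNAT10 over shNC of -0.39, with 6 below 0 and 5 above.

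Several core genes had more than 1 peak. PSMA6 had 3 table peaks. One at 6.06 was in shNC only, a second stood at 2.64 in shNC and 21.1 in shNAT10, the highest ratio of all member pairs, and the third stood at 29.7 in shNC and 17.7 in shNAT10. Each of the 3 also overlapped listed peaks of another gene on the same strand, ENSG00000258790, at 13.9 in shNC and 22.0 in shNAT10, so the reads of PSMA6 cannot be assigned to 1 gene. PSMB3 had one pair at 30.5 and 23.2 and a second, 3' of it, at 60.1 in shNC and 4.77 in shNAT10. The second pair had the next largest difference after RNF26, a ratio of 12.6, and had no row in the table. PSMB4 had a table pair at 5.78 in shNC and 2.36 in shNAT10, while its strong peak outside the table was level, at 28.8 and 30.6.

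**Figure D1:**
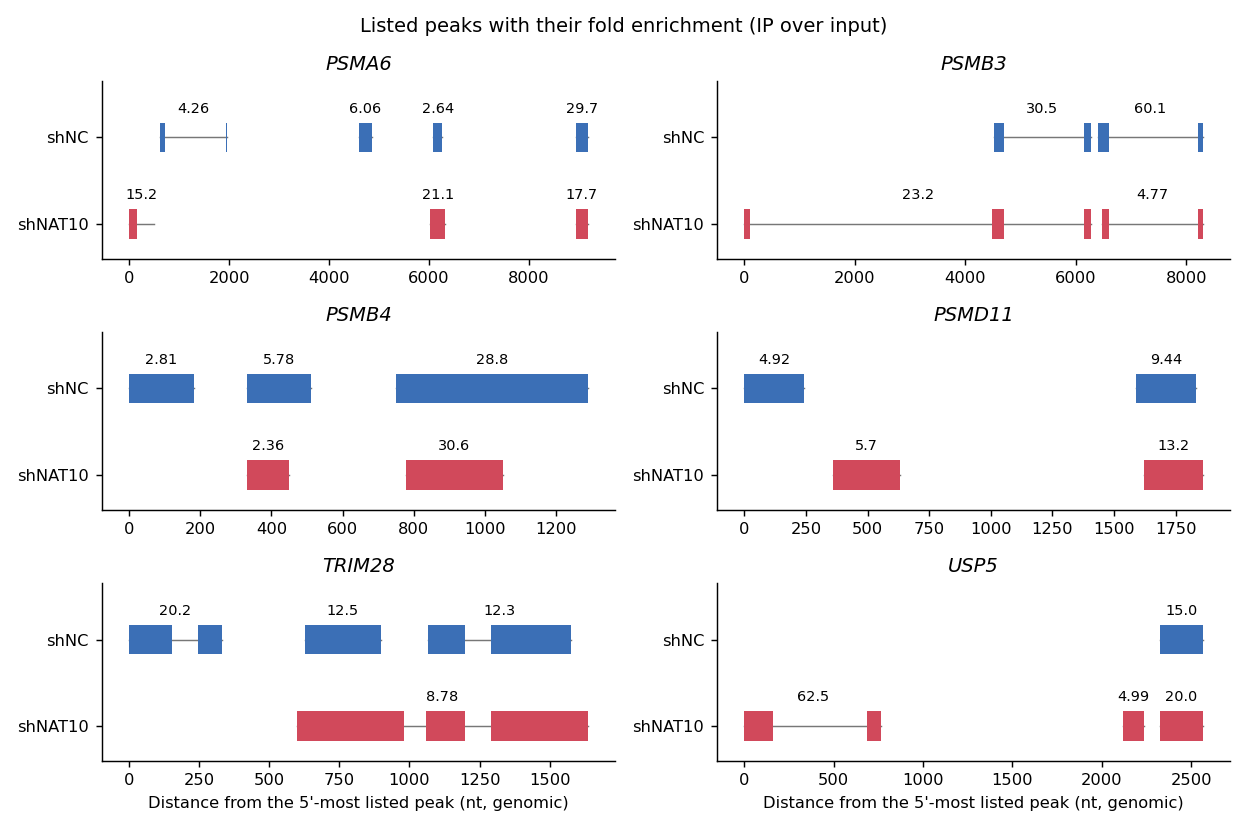
Listed peaks of 6 member genes by condition, with the distance in nt from the 5'-most listed peak of the gene on the horizontal axis. Filled boxes are exonic blocks, thin lines join the blocks of a peak, and the number above each peak is its fold enrichment. In PSMA6 the middle peak stood at 2.64 in shNC and 21.1 in shNAT10 while the 3' peak stood at 29.7 and 17.7, and in PSMB3 the 3' peak stood at 60.1 and 4.77.

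The 19S cap was less uniform than the core. Of its 10 genes, 6 had peaks in both lists, 3 in shNC only and 1 in shNAT10 only. For the other table genes these shares were 59.1%, 21.6% and 19.3%. The cap was thus close to them in the share listed in both, and its counts in a single list rest on few genes. The ATPases PSMC3 (7.46 in shNC and 1.72 in shNAT10), PSMC4 (49.6 and 18.1) and PSMC1 (42.5 and 17.7) were lower in shNAT10, and the ATPase PSMC5 was higher, at 5.20 and 9.23. The same PSMC5 shNC peak also overlapped a second shNAT10 peak, at 17.9. The PSMC1 peaks shared only 31 exonic bases and the pair lay outside the table, while the table peak of PSMC1 overlapped its shNC peak only. Of the non-ATPase subunits, PSMD13 stood at 5.90 in shNC and 12.9 in shNAT10. In shNC only were PSMD1, a scaffold of the cap, at 11.7, PSMD14, the deubiquitinase of the cap, at 12.4, and PSMD9, an assembly chaperone, at 17.2. The PSMD9 peak shared its position with a table peak of AC069503.2. PSMD6 was in shNAT10 only, at 6.04. PSMD11 had neighbouring table peaks in opposite states, a coding-sequence peak at 4.92 in shNC only and a 3'-UTR peak at 5.70 in shNAT10 only. One more PSMD11 peak outside the table was listed in both, at 9.44 and 13.2.

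The remaining PSM genes act on the core from outside. PSME2, a subunit of an activator ring, stood at 21.2 in shNC and 6.38 in shNAT10. PSME3, which forms the nuclear activator ring, had its table peak in shNAT10 only, at 11.8. The assembly chaperones PSMG3, at 18.6 in shNC only, and PSMG4, at 22.8 in shNAT10 only, were found in 1 list each.

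The members had 35 peak pairs in 32 genes, and their median log2 ratio of shNAT10 over shNC was -0.75. The order-statistic 95% interval of this median ran from -1.14 to 0.09 and covers the sampling of peaks only. The median was -0.16 over the 1503 pairs of the other table genes and -0.08 over all 3188 pairs. At least 2-fold lower in shNAT10 were 12 member pairs (34.3%), against 29.3% of the pairs of the other table genes and 24.7% of the pairs of all genes. At least 2-fold higher were 6 member pairs (17.1%), against 25.8% and 21.8%. The ratio of shNAT10 over shNC was below 1 in 23 member pairs and above 1 in 12. It was below 1 in 806 and above 1 in 695 of the 1503 pairs of the other table genes. For all 3188 pairs these counts were 1668 and 1514. Of the 35 pairs, 8 lay outside the table. The shNC peak of the PSMC1 pair also overlapped a table peak, so these 8 are not all free of the rule. Their median log2 ratio was -0.50, with 5 below 0 and 3 above. At least 2-fold lower were 2 of the 8 (PSMB3 and PSMC1), and 0 were at least 2-fold higher. The 415 pairs of the other table genes that lay outside the table had a median of -0.01, with 17.8% lower and 17.6% higher.

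**Figure D2:**
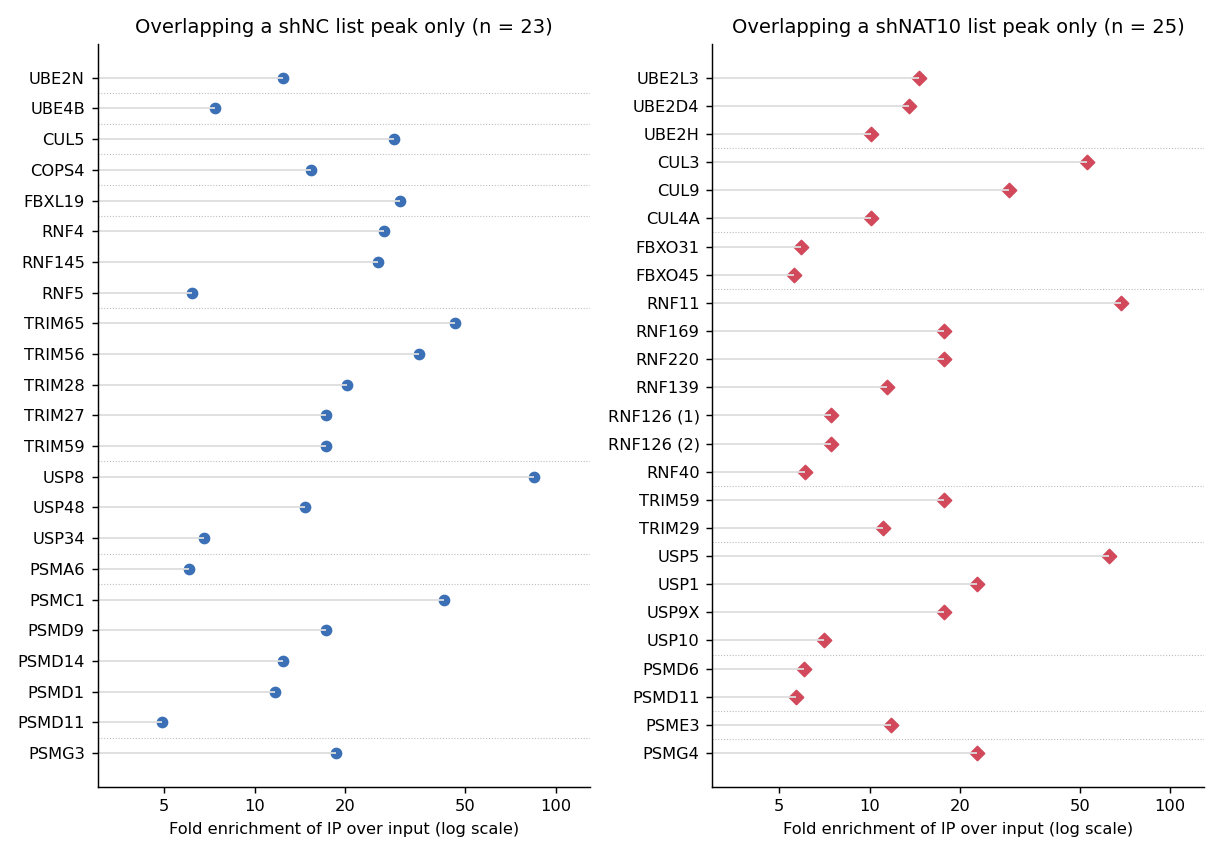
Fold enrichment of IP over input (log axis) of the 23 member table peaks that overlapped a shNC list peak only (left) and the 25 that overlapped a shNAT10 list peak only (right), with dotted lines between protein classes. USP8 at 85.0 leads the left panel, and RNF11 at 68.4, USP5 at 62.5 and CUL3 at 52.8 lead the right one.

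Of the 75 member table peaks, 23 (30.7%, 95% Wilson interval 21.4 to 41.8) overlapped a shNC list peak only, against 32.6% of all table peaks. In shNAT10 only were 25 (33.3%, 23.7 to 44.6), against 27.3%. The other 27 (36.0%, 26.1 to 47.3) overlapped a peak of both lists, against 40.1%. These intervals too cover the sampling of peaks and not the variation between cultures. By genes, 36 of 69 members had a peak in both lists (52.2%), 13 in shNC only (18.8%) and 20 in shNAT10 only (29.0%). For the other table genes these shares were 59.1%, 21.6% and 19.3%. Of the 22 PSM genes, 15 were in both lists (68.2%), 4 in shNC only (18.2%) and 3 in shNAT10 only (13.6%). Of the 47 others, 21 were in both (44.7%), 9 in shNC only (19.1%) and 17 in shNAT10 only (36.2%). In the peak lists, 36 of 67 member shNC peaks (53.7%) were overlapped by a shNAT10 peak, close to the 51.4% of all peaks. The share of shNAT10 peaks overlapped by a shNC peak was 70.4% for the 27 PSM peaks and 37.0% for the 46 others. For the other table genes it was 57.2%. In the other direction the split was narrower. Of the shNC peaks, 62.1% of 29 PSM peaks and 47.4% of 38 others were overlapped by a shNAT10 peak, against 55.6% for the other table genes.

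**Figure D3:**
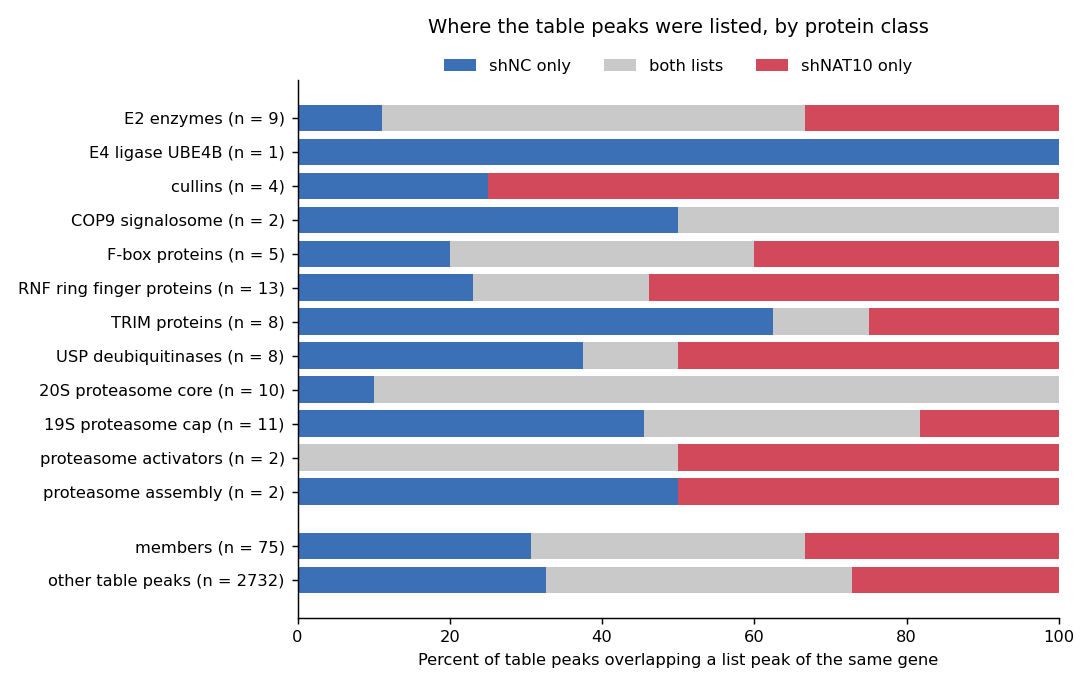
Percent of table peaks that overlapped a list peak of the same gene in shNC only (blue), in both lists (grey) or in shNAT10 only (red), for each protein class, for all 75 member peaks and for the 2732 other table peaks. The 20S core has 9 of 10 peaks in both lists, the cullins 3 of 4 in shNAT10 only, and the TRIM genes 5 of 8 in shNC only.

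The region classes come from the authors' table. Of all member table peaks, 38 (50.7%, 95% Wilson interval 39.6 to 61.7) were classed as 3'-UTR, 15 as coding sequence, 21 as exon only and 1 as 5'-UTR, and of the other table peaks 56.3% were 3'-UTR. For the PSM genes, 6 of 25 peaks (24.0%) were 3'-UTR and 13 (52.0%) had more than 1 exonic block, so that they crossed a splice junction. For the other members, 32 of 50 (64.0%) were 3'-UTR and 6 (12.0%) had more than 1 block. Among the other table peaks, 26.9% had more than 1 block.

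The share of peaks with a site was close to that of the rest of the table. Of the member peaks, 46 (61.3%, 50.02 to 71.5) held a site, and of the other table peaks 60.9%. Of the 95 member sites, 5 lay in introns between the exonic blocks, and in PSMB1, PSMB5 and PSMB7 all listed sites did. Per 100 nt of exonic sequence, the PSM peaks held 0.21 sites, the RNF peaks 0.87, the TRIM peaks 0.70 and the other table peaks 0.49. No PSM peak (0 of 25) held 3 or more sites, while 22.3% of the other table peaks did. The peaks richest in sites were those of TRIM28 with 8, UBE2M with 7 and RNF145 with 6. Sites were also counted by where a peak was listed. Among members, 22 of 27 peaks in both lists (81.5%) had one, against 12 of 23 in shNC only and 12 of 25 in shNAT10 only. The other table peaks had the same order, with 73.4%, 52.6% and 52.3%. Peaks in both lists were also longer, with a median of 384 nt against 240 nt and 181 nt in members, so length moved with this share and its part was not tested.

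**Figure D4:**
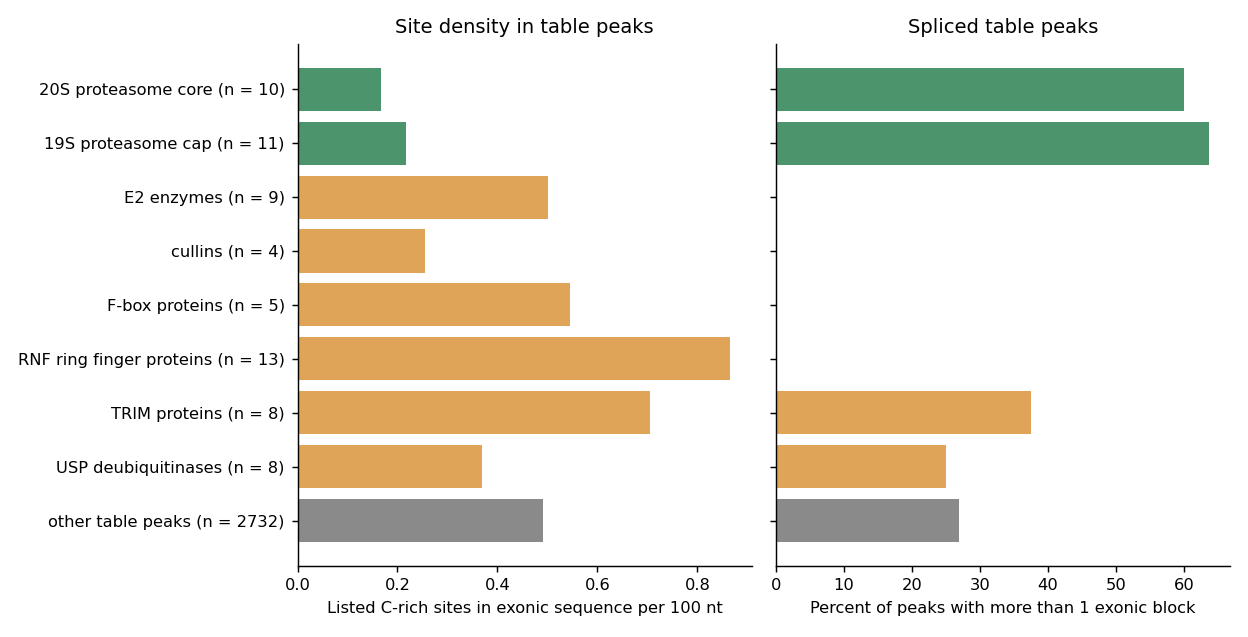
CXXCXXCXXCXX sites in exonic sequence per 100 nt (left) and percent of peaks with more than 1 exonic block (right) for table peaks of 8 member classes and for the other table peaks. The 20S and 19S proteasome genes (green) have 0.17 and 0.22 sites per 100 nt and 60.0% and 63.6% of peaks with several blocks, against 0.49 sites and 26.9% in the other table peaks (grey).

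Fold enrichments recurred at evenly spaced values, which touches several members. Of the 2594 shNC values below 10, 35.2% were whole multiples of 0.691 within rounding, and of the 2529 shNAT10 values below 10, 33.3% were whole multiples of 0.845. For the median of the trial steps from 0.5 to 1 this share was 0.89% and 0.91%. In shNAT10, 6 member peaks had exactly the same value of 17.7, those of PSMA6, PSMC1, RNF169, RNF220, TRIM59 and USP9X, and 74 peaks of the whole list had it. CUL5, PSME3, RNF4 and USP10 had a peak at 6.76, the value of 155 listed peaks. The shNAT10 value of UBE2V1, 9.30, was also on a step. So were larger values, among them RNF11 at 68.4 and USP5 at 62.5 in shNAT10 and USP8 at 85.0 in shNC. Values above 10 are given to fewer decimals, so a match to a step is looser there. Values below 10 on a step had weaker support than the others, with a median log10 FDR of -1.26 against -7.09 in shNC and -1.29 against -6.56 in shNAT10. What makes the steps was not tested.

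Other genes of the pathway, taken from lists of E1 enzymes, ubiquitin and its relatives, cullin partners, the anaphase-promoting complex, other ligases, other deubiquitinases, proteasome partners, shuttle factors and enzymes of SUMO and UFM1, leaned the other way in the pairs. Of 271 such genes, 52 had a row in the table, with 55 peaks. Of these peaks 20 were in shNC only (36.4%), 13 in shNAT10 only (23.6%) and 22 in both (40.0%), close to the 32.6%, 27.3% and 40.1% of all table peaks. Their 28 pairs, in 24 genes, had a median log2 ratio of 0.69. In shNAT10, 6 pairs (21.4%) were at least 2-fold lower and 11 (39.3%) at least 2-fold higher. Over the pairs of all genes these shares were 24.7% and 21.8%. PRPF19, a ligase of the spliceosome, was lowest, at 186 in shNC and 6.07 in shNAT10. UBXN1 (59.4 and 8.36) and FAF1 (38.0 and 10.1), cofactors of the VCP segregase, came next. The highest were ANAPC11, the RING subunit of the anaphase-promoting complex, at 7.29 in shNC and 61.3 in shNAT10, RAD23B, a shuttle to the proteasome, at 11.4 and 82.0, and SAE1, a subunit of the SUMO E1, at 11.5 and 49.7. RPS27A, which codes for ubiquitin joined to a ribosomal protein, was listed in both conditions, at 10.0 in shNC and 32.6 in shNAT10 for its strongest pair.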

How the data were processed

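FaDu cells with shNC or shNAT10 were profiled by acRIP-seq, with 1 IP and 1 input library each. GEO's processing notes name cutadapt 2.5, HISAT2 2.1.0, HOMER 4.10.4 and featureCounts 1.6.3, and the builds GRCh38, hg38 and GRCm38. The peak caller and its scaling are not given in the sources used here. The deposited lists give each peak's fold enrichment as a ratio of IP over input and its log10 FDR, as the authors' caller wrote them. The authors' deposited table of differing peaks gave symbols, positions, region classes and site counts. Its log2 fold changes between the conditions, with their p-values and FDRs, were not used.

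Positions are GRCh38, counted from 1. Overlap needed the same gene identifier, strand and at least 1 exonic base. No p-value was computed, since peaks are not replicates. Members and gene lists were chosen with earlier results of these data known. The rule was to name every member, with all values for UBE, PSM, COPS and CUL genes, the 3 highest and lowest ratios and enrichments, and the 3 peaks richest in sites. Values of some single genes are not reported here or plotted by name, though the counts include them. Pairing was run on a copy of the shNC list with peaks removed at random and fold enrichments rescaled. Peak positions were left unchanged there, so this does not check pairs that shift or overlap only in part. Depth is unknown, so no counting error could be given. Versions were Python 3.11.15, pandas 2.3.3, numpy 2.4.6, matplotlib 3.10.9 and scipy 1.17.1.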

Additional observations from a re-analysis of the deposited data

How the results depend on the processing

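No paired analysis was possible because the peak lists carry no replicate numbers to pair. Of 46 alternative values of 8 results, 41 stayed within the interval of the reported share or median, or within 1.5 times the reported count. With UBE, PSM, COPS and CUL genes alone, the share of table peaks in both lists moved from 36.0% to 48.8%. With a 4-fold limit, 8 member pairs passed in place of 18. Without peaks classed only as exon, 70.4% were 3'-UTR. Counting only peaks with at least 2 sites gave 33.3%. Where list peaks had to share 50% of their exonic length, 38.8% of member shNC peaks were overlapped in place of 53.7%. The median log2 ratio of the pairs stayed below 0 under every alternative run. It ran from -0.78 with the highest value per gene to -0.44 without fold enrichments on a step, an alternative chosen after seeing the data. Without values on a step, 22 of the 35 pairs were left. Their ratio of shNAT10 over shNC was below 1 in 13 and above 1 in 9, against 23 and 12 of all 35. With 1 library of each kind, the variation between cultures could not be estimated.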
